A study of Mus musculus with 6 samples.

Results

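The circadian clock genes described here were the 10 rows of the count table whose gene name was Arntl, Clock, Per1, Per2, Per3, Cry1, Cry2, Nr1d1, Nr1d2 or Dbp, out of 49315 genes. The rule that picked them used their names, and all 10 were among the 18234 genes with enough counts to be tested. Bulk RNA sequencing had been carried out on bEND.3, an immortalized mouse brain endothelial cell line, after knockdown of the long non-coding RNA Gm39822. The 4 GapmeR samples were transfected with an antisense LNA GapmeR, a chimeric oligonucleotide that directs RNase H to cut its target RNA, against Gm39822 at 100 nM. The 2 negative control samples received a non-targeting LNA GapmeR, also at 100 nM, and a Lipofectamine reagent was used in both groups. One line and a single oligonucleotide per group were used, nothing in the sources used here says whether the samples came from separate cultures, and p-values therefore measure only the spread between these samples, which may be technical. The hour of harvest, the time after transfection and any synchronization of the cells for RNA sequencing are not given in the sources used here, so each level is that of a single, unstated time.

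The mammalian clock is a transcriptional feedback loop. CLOCK and BMAL1, the product of Arntl, bind E-boxes and activate the Per and Cry genes, whose proteins return to the nucleus and inhibit CLOCK and BMAL1. In a coupled loop the nuclear receptors REV-ERBα and REV-ERBβ, encoded by Nr1d1 and Nr1d2, repress and the ROR receptors activate genes such as Arntl through RORE elements, while DBP activates and NFIL3 represses genes with D-boxes. Endothelial cells hold a clock of their own, and serum, glucocorticoids and cAMP signals can reset it.

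Promoter windows were read to show which of these elements stood at the start sites of the genes whose levels moved. RefSeq windows from 250 bases before to 50 bases after the start (GRCm38.p6, the build called mm10) were found for 9 of the 10 genes, 13 windows in all, and Per2 had no entry. Of 32851 windows genome-wide, 7.15% held the E-box CACGTG on either strand, 4.68% held its variant CACGTT, 1.06% held a D-box, TTATGTAA or TTACGTAA, 2.61% held the RORE core TAGGTCA and 1.79% held the cAMP response element TGACGTCA, and no motif contains another. Among the clock genes, an E-box lay in a window of Per1 and in that of Cry1, the E-box variant in those of Cry1, Cry2 and Nr1d1, a RORE core in a window of Arntl, and no window held the cAMP response element. The Per3 window held 2 D-boxes, beginning 205 and 158 bases before the start, and 8 windows genome-wide (0.0244%) held at least 2. The 250 bases before the start of Per1, Per3 and Cry1, the 3 clock genes called in every fit at the same threshold, are printed with these motifs in capitals, followed by 30 bases around the RORE core of Arntl and of Nfil3. The E-box of Per1 began 166 bases before the start, that of Cry1 60 bases before it, with the variant on the other strand 79 bases before it, and the RORE core began at base 31 of Arntl and, on the other strand, 12 bases before the start of Nfil3. The windows were Per1 chr11:69098699-69098948 (plus strand), Per3 chr4:151044666-151044915 (minus), Cry1 chr10:85185055-85185304 (minus), Arntl chr7:113207530-113207559 (plus) and Nfil3 chr13:52981033-52981062 (minus).
Per1: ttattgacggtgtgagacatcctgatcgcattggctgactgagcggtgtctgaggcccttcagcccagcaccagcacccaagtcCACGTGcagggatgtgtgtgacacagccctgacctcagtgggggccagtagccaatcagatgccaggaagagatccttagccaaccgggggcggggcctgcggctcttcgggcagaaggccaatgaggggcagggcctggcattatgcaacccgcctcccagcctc
Per3: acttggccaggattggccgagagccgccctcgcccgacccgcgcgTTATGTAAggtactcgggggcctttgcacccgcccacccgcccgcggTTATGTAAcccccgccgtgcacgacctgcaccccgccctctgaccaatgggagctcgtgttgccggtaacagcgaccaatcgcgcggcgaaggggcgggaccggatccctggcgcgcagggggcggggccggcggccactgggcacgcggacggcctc
Cry1: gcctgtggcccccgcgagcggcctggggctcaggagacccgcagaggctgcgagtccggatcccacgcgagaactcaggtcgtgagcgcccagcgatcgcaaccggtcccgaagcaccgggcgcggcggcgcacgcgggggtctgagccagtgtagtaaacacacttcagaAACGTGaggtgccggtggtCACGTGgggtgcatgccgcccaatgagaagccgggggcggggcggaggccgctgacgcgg
Arntl: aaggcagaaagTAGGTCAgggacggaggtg
Nfil3: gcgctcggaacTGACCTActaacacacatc
The printed windows of Per1, Per3, Arntl and Nfil3 belong to start sites inside the span of the gene. A motif match is a description of the letters in these windows and not evidence of binding. The lack of a match covers only these windows and the spellings searched, and not elements further away or in other spellings.

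Total counts were between 30264086 and 37117934 per GapmeR sample and 29261988 and 34266811 in the controls, and 3 counts, taken as the limit of detection for counting error only, corresponded to 0.0771 to 0.110 CPM, the counts per library scaled by TMM to a common total. Gm39822, the targeted RNA, had 2, 1, 4 and 2 counts after knockdown and 61 and 56 in the controls (log2 fold change -4.82, SE 0.41, edgeR adjusted p = 8.8e-08). Markers of endothelial cells summed to 8848 to 10039 CPM after knockdown and 10368 to 10807 CPM in the controls, with 6 of 12 called lower and 2 higher. Macrophage markers summed to 228, 209, 360 and 393 CPM in GapmeR samples 1 to 4 and to 177 and 172 CPM in the controls, with 2 of 12 called higher. Of all genes tested, 25.4% were called higher and 20.0% lower. All 12 macrophage markers had a log2 fold change above 0, from 0.43 to 1.87 with a median of 1.09, so the list as a whole was higher. Those of pericytes and smooth muscle (8.68 to 13.3 against 2.19 to 2.34 CPM) and of epithelium (1.12 to 1.42 against 0.511 to 0.721 CPM) were low, those of neural and glial cells were 23.0 to 36.1 against 48.0 to 49.3 CPM, and no marker was at 0 in all samples. The part of these differences in the results was not tested. A fit without GapmeR samples 3 and 4, the highest in macrophage markers, is given with the results. GapmeR samples 1 and 2, kept in it, still exceeded both controls in the sum of these markers, so that fit cannot remove the difference in the sum. Cd68 (123 and 113 against 87.2 and 89.5 CPM) and Lyz2 (79.1 and 73.5 against 68.8 and 62.1 CPM) made up most of it. By single marker, 7 of the 12 lay above both controls in every GapmeR sample. The other 5, Adgre1, Itgam, Spi1, C1qa and C1qb, overlapped the controls in GapmeR sample 1 or 2. GapmeR sample 2 stood apart from the other GapmeR samples, with a chi-square of counts per degree of freedom of at least 20.5 in each of its 3 pairs and 5.87 to 11.8 in the 4 other pairs of replicates. In bulk samples, fewer cells of a type and less RNA per cell cannot be told apart.

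After Gm39822 knockdown, Per3 and Cry1 rose and Per1, Arntl and Dbp fell, while Clock, Per2, Cry2, Nr1d1 and Nr1d2 did not pass the test. The largest fold was that of Per3, 2.58-fold higher, followed by Per1, 1.54-fold lower. Means are given ± SD over the 4 GapmeR and the 2 negative control samples. A log2 fold change is that of GapmeR against negative control, and SE is its standard error. These calls used edgeR's quasi-likelihood test with an adjusted p under 0.05 over all genes tested. The 5 of 10 clock genes that passed stood beside 45.3% of all genes tested, and the 2 higher and 3 lower beside 25.4% higher and 20.0% lower, so the clock genes were not called at a share far from that of the table. The groups did not overlap for 6 of the 10 genes, 2 higher and 4 lower, beside 59.2% of all genes tested. The median log2 fold change was 0.13 over the clock genes and 0.03 over all genes, and the median of its absolute size was 0.29 and 0.38.

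**Figure D1:**
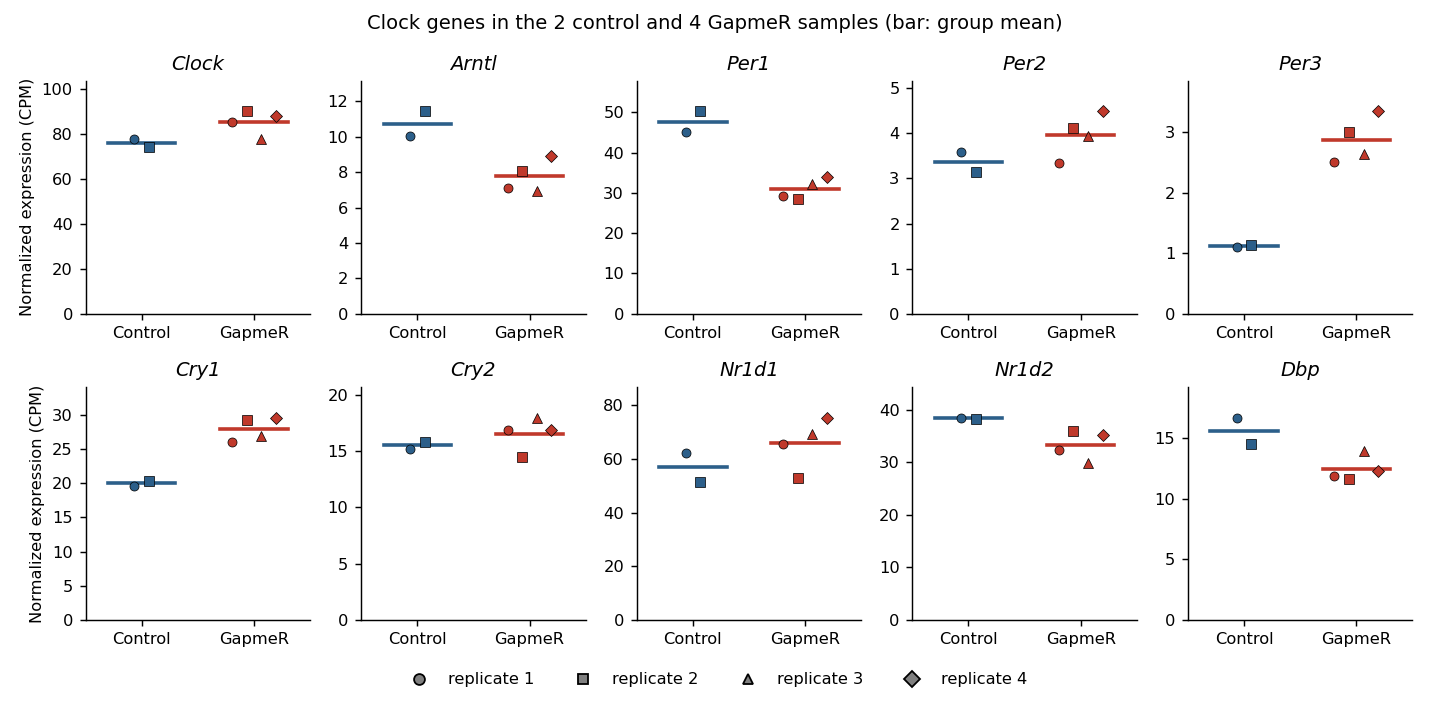
Normalized level (CPM, vertical axis of each panel) of the 10 clock genes in the 4 GapmeR and 2 negative control samples, each point 1 sample, its shape the replicate number, and each bar the group mean. All 4 GapmeR samples lay above both controls for Per3 and Cry1, and below both for Arntl, Per1, Nr1d2 and Dbp.

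Of the positive arm, Arntl fell while its partner Clock gave no call. Arntl, on chromosome 7 (chr7:113178471-113314126 in mm10 by RefSeq, as for the genes that follow, ENSMUSG00000055116), had 7.11, 8.09, 6.93 and 8.92 CPM in GapmeR samples 1 to 4 and 10.0 and 11.4 CPM in the controls. Every GapmeR sample was below both controls, and the means were 7.76 ± 0.922 CPM and 10.7 ± 0.989 CPM, a log2 fold change of -0.47 (SE 0.13, edgeR adjusted p = 0.00689). Without negative control 2 the difference was -0.35 with an edgeR adjusted p of 0.147, and with scaling by library size only it was -0.32 with an edgeR adjusted p of 0.0607. Clock (chr5:76209868-76305603, ENSMUSG00000029238), which encodes the DNA-binding partner of BMAL1, was at 85.2, 89.9, 77.4 and 88.0 CPM against 77.7 and 74.1 CPM. GapmeR sample 3 lay just under the higher control, so the groups overlapped, and the log2 fold change was 0.17 (SE 0.08, edgeR adjusted p = 0.0886). Clock passed the threshold, always in the higher direction, in 5 of 14 other fits, among them the one without GapmeR sample 3 (0.23, edgeR adjusted p = 0.0229) and the one without both GapmeR samples 3 and 4, where the macrophage markers were highest (0.23, edgeR adjusted p = 0.0435).

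The 3 Period genes, whose proteins form the repressor complex with the cryptochromes, moved apart from each other. Per1 (chr11:69095108-69109965, ENSMUSG00000020893), the Period gene most readily induced by resetting stimuli, had 29.2, 28.4, 32.2 and 34.1 CPM after knockdown and 45.1 and 50.3 CPM in the controls. Every GapmeR sample was well below both controls, and the log2 fold change was -0.62 (SE 0.09, edgeR adjusted p = 2.3e-05). Per2 (chr1:91415977-91459351, ENSMUSG00000055866), whose product also binds CRY proteins and nuclear receptors, was at 3.33, 4.11, 3.93 and 4.49 CPM against 3.58 and 3.13 CPM. Its groups overlapped at GapmeR sample 1 (log2 fold change 0.24, SE 0.17, edgeR adjusted p = 0.272). Per3 (chr4:150997018-151044707, ENSMUSG00000028957), a Period gene regarded as dispensable for the core oscillation, had 85, 117, 82 and 108 counts after knockdown and 30 and 36 in the controls, or 2.51, 3.01, 2.64 and 3.34 CPM against 1.10 and 1.13 CPM. The lowest GapmeR sample was more than 1 CPM above both controls, and the log2 fold change was 1.37 (SE 0.22, edgeR adjusted p = 0.000118). The Per3 promoter, with its 2 D-boxes, was the only 1 of the 13 clock gene windows to hold TTATGTAA or TTACGTAA. The related letters TTATGCAA were not searched for, and they stand in the printed window of Per1, which fell. The D-box search therefore does not set Per3 apart from Per1. Vamp3, the next gene upstream of Per3 on the same strand, 2617 bases away, was at 69.4 to 76.6 CPM after knockdown and 81.8 and 74.6 CPM in the controls (log2 fold change -0.11, edgeR adjusted p = 0.224). Vamp2, upstream of Per1 on the same strand at 2825 bases, was higher, at 38.2, 38.8, 44.8 and 38.0 CPM against 31.5 and 31.2 CPM (log2 fold change 0.35, edgeR adjusted p = 0.00346). Uts2, an opposite-strand gene that shares 1.47% of the merged exons of Per3, was under 0.2 CPM in every sample and at 0 in both controls (edgeR adjusted p = 0.0397).

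Of the cryptochromes, which are the strongest repressors of CLOCK and BMAL1, Cry1 rose and Cry2 gave no call. Cry1 (chr10:85131700-85185054, ENSMUSG00000020038) had 26.1, 29.3, 27.0 and 29.7 CPM after knockdown and 19.7 and 20.3 CPM in the controls. All 4 GapmeR samples were above both controls by over 5 CPM, with a log2 fold change of 0.48 (SE 0.09, edgeR adjusted p = 0.000278) and a level 1.40-fold higher. Cry2 (chr2:92403646-92434085, ENSMUSG00000068742) was at 16.9, 14.5, 18.0 and 16.8 CPM against 15.2 and 15.9 CPM. GapmeR sample 2 was below both controls and the other 3 above both, and the log2 fold change was 0.09 (SE 0.10, edgeR adjusted p = 0.497). Both Cry windows held the E-box variant, and the canonical E-box was found in that of Cry1.

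The REV-ERB genes gave no call. Nr1d1 (chr11:98767932-98775377, ENSMUSG00000020889), which encodes the heme-sensing repressor REV-ERBα, had 65.6, 53.0, 69.3 and 75.4 CPM after knockdown and 62.4 and 51.2 CPM in the controls. GapmeR sample 2 lay between the controls and the other 3 above both (log2 fold change 0.21, SE 0.13, edgeR adjusted p = 0.224). Without GapmeR sample 2, Nr1d1 was called higher (0.31, edgeR adjusted p = 0.00802). The exons of Nr1d1 share 1694 bases, 52.3% of their merged length, with the opposite-strand gene Thra, a thyroid hormone receptor gene, and the strand setting of the counting is not given in the sources used here, so reads of the pair may not be told apart. Thra itself was at 21.8 to 25.9 CPM after knockdown and 25.6 and 27.3 CPM in the controls (log2 fold change -0.11, edgeR adjusted p = 0.353). Nr1d2 (chr14:18204056-18239106, ENSMUSG00000021775), which encodes REV-ERBβ, was at 32.3, 36.0, 29.9 and 35.2 CPM against 38.6 and 38.4 CPM. Every GapmeR sample was below both controls, yet the log2 fold change of -0.20 (SE 0.08, edgeR adjusted p = 0.0604) did not pass. It passed in 1 of 14 other fits, the one without GapmeR sample 2 (-0.24, edgeR adjusted p = 0.0159).

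Dbp (chr7:45705100-45710203, ENSMUSG00000059824), the PAR bZIP activator that is a direct output of CLOCK and BMAL1, fell. It had 11.9, 11.6, 14.0 and 12.3 CPM after knockdown and 16.7 and 14.6 CPM in the controls, so that GapmeR sample 3 came within 1 CPM of the lower control. The log2 fold change was -0.33 (SE 0.11, edgeR adjusted p = 0.0190), a level 1.26-fold lower. The call was lost without negative control 1 (-0.21, edgeR adjusted p = 0.277), without GapmeR sample 1 (edgeR adjusted p = 0.0508) and with scaling by library size only (-0.18, edgeR adjusted p = 0.182). Dbp shares 539 exon bases, 15.5% of its merged exons, with the opposite-strand gene Sphk2, a sphingosine kinase gene. Sphk2 was itself lower, at 93.8, 74.7, 96.8 and 85.1 CPM against 111 and 119 CPM (log2 fold change -0.40, edgeR adjusted p = 0.00258), and its part in the Dbp counts was not tested. Car11, upstream of Dbp on the same strand at 150 bases, was at 1.95 to 2.87 CPM against 2.96 and 3.23 CPM (log2 fold change -0.43, edgeR adjusted p = 0.0946).

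With 4 samples against 2, the exact permutation test of a single gene has 15 assignments and cannot give a p below 0.0667. That smallest two-sided p was reached by Arntl, Per1, Per3, Cry1 and Dbp, while Nr1d2 gave 0.133, Clock 0.200, Per2 0.267, Nr1d1 0.333 and Cry2 0.400.

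Levels of different genes were compared per kilobase of merged exons (CPM per kb). In the controls Nr1d1 was highest at 17.5 ± 2.43 CPM per kb, followed by Per1 at 6.23 ± 0.474, Dbp at 4.51 ± 0.438, Clock at 4.40 ± 0.149, Nr1d2 at 4.25 ± 0.0154 and Cry1 at 4.02 ± 0.0937. Clock and Nr1d2 both lay within 1 SD of Dbp, so the order of these neighbours was not set beyond their spread. Cry2 at 1.81 ± 0.0551, Arntl at 0.928 ± 0.0854, Per2 at 0.511 ± 0.0478 and Per3 at 0.106 ± 0.00222 CPM per kb followed, each apart from the next by more than its SD. In the GapmeR samples Cry1, at 5.62 ± 0.348 CPM per kb, moved from sixth to second place, and Per1, at 4.04 ± 0.343, from second place to just behind Clock at 4.93 ± 0.318. Nr1d1 stayed first (20.3 ± 2.93) and Arntl, Per2 and Per3 stayed last (0.671 ± 0.0797, 0.604 ± 0.0732 and 0.274 ± 0.0358 CPM per kb). The SDs of Arntl and Per2 overlapped there, whereas in the controls these genes were apart. With the length of the canonical transcript in place of merged exons the highest and the lowest 4 genes of the controls kept their places, and Dbp (8.52 CPM per kb) came before Clock (7.66) and Per1 (7.13).

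Ratios of paired genes within each sample, which do not depend on the scaling between samples, were added after the data had been seen. The log2 ratio of Per1 to Per3 was 3.54, 3.24, 3.61 and 3.35 after knockdown and 5.36 and 5.48 in the controls, a difference of -1.99. That of Per2 to Per3 was 0.47 ± 0.07 against 1.59 ± 0.17, and that of Per1 to Per2 was 2.97 ± 0.15 against 3.83 ± 0.25. Per3 thus gained on both other Period genes in every GapmeR sample, and Per1 lost ground to both. The log2 ratio of Clock to Arntl, the partners of the activator, was 3.58, 3.47, 3.48 and 3.30 against 2.95 and 2.70, a difference of 0.64. That of Cry1 to Cry2 was 0.76 ± 0.20 against 0.37 ± 0.01, with no overlap, and that of Nr1d1 to Nr1d2 was 0.97 ± 0.29 against 0.56 ± 0.20, with overlap. The largest shift after Per1 to Per3 was in the ratio of the D-box activator Dbp to the D-box repressor Nfil3, with a log2 value of 0.40, 0.55, 0.42 and 0.54 after knockdown and -0.95 and -1.10 in the controls. The sign of that ratio turned, with less Dbp than Nfil3 counts in both controls and more in all 4 GapmeR samples. The groups did not overlap for 6 of the 7 ratios, and the exact permutation test gave its smallest two-sided p of 0.0667 for 5 of them, 0.133 for Cry1 to Cry2 and 0.267 for Nr1d1 to Nr1d2. Among single genes, 59.2% of all tested did not overlap, and no such share was computed for pairs. The ratios reuse the counts of the single-gene results, and those of the Period genes depend on each other, so they are no further evidence.

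**Figure D2:**
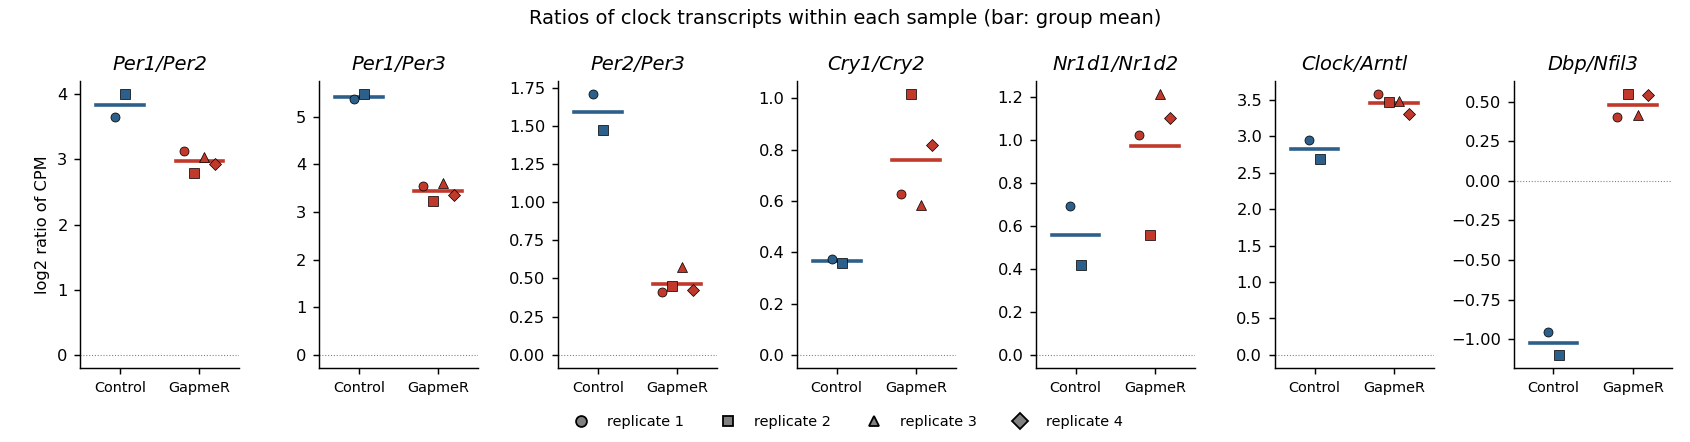
Log2 ratio of counts of 2 genes within a sample, for 7 pairs, each point 1 sample and each bar the group mean. Per1 to Per3 lay at 3.24 to 3.61 after knockdown and at 5.36 and 5.48 in the controls, and Dbp to Nfil3 above 0 after knockdown and below 0 in the controls.

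Other transcription factors of the clock included Nfil3, the gene with the largest drop after Nr4a1 among the clock lists. Of 10 tested, 2 rose and 5 fell (70.0% called, beside 45.3% of all genes), with a median log2 fold change of -0.38 and a median absolute size of 0.65. Nfil3, the D-box repressor whose promoter window with a RORE core is printed above, had 305, 309, 325 and 273 counts after knockdown and 886 and 996 in the controls. Its level was 8.97 ± 1.10 CPM against 31.8 ± 0.803 CPM, the largest drop of the list (log2 fold change -1.83, SE 0.10, edgeR adjusted p = 6.8e-10). Arntl2, a paralog of Arntl whose product also pairs with CLOCK, went the opposite way from Arntl, with 91, 153, 83 and 107 counts against 34 and 34 (log2 fold change 1.46, SE 0.24, edgeR adjusted p = 0.000115). Npas2, a paralog of Clock whose product can take the place of CLOCK beside BMAL1, was under 0.5 CPM in every sample (log2 fold change -0.21, edgeR adjusted p = 0.728).

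Rorb and Rora, which encode ROR activators, were both lower. Rorb was at 3.22, 3.36, 4.19 and 2.85 CPM after knockdown and 6.72 and 7.99 CPM in the controls (log2 fold change -1.11, SE 0.16, edgeR adjusted p = 3.9e-05). Rora was at 3.19, 2.18, 3.93 and 2.76 CPM against 3.87 and 4.86 CPM, with overlap. Its log2 fold change of -0.54 (SE 0.21, edgeR adjusted p = 0.0460) passed narrowly and did not pass in 8 of 14 other fits. Of the E-box repressors of the DEC family, Bhlhe40 fell from 105 ± 3.93 CPM to 62.4 ± 5.32 CPM, with a log2 fold change of -0.75 (SE 0.08, edgeR adjusted p = 1.4e-06). Bhlhe41 rose from 8.70 ± 0.342 CPM to 12.0 ± 0.779 CPM, with a log2 fold change of 0.47 (SE 0.11, edgeR adjusted p = 0.00271). The 2 members of this family thus moved in opposite directions, with no overlap of the groups in either.

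The other PAR bZIP factors, which like DBP activate D-boxes, were Tef and Hlf. Hlf, a gene under 1 CPM named after its values were seen, had 11, 13, 20 and 10 counts against 25 and 30 (log2 fold change -1.21, SE 0.36, edgeR adjusted p = 0.0123), and it lost the call without negative control 1 (edgeR adjusted p = 0.0666) or without negative control 2 (edgeR adjusted p = 0.0931). Tef did not pass (log2 fold change -0.13, edgeR adjusted p = 0.133), nor did Ciart, a repressor that binds BMAL1 (0.06, edgeR adjusted p = 0.724).

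**Figure D3:**
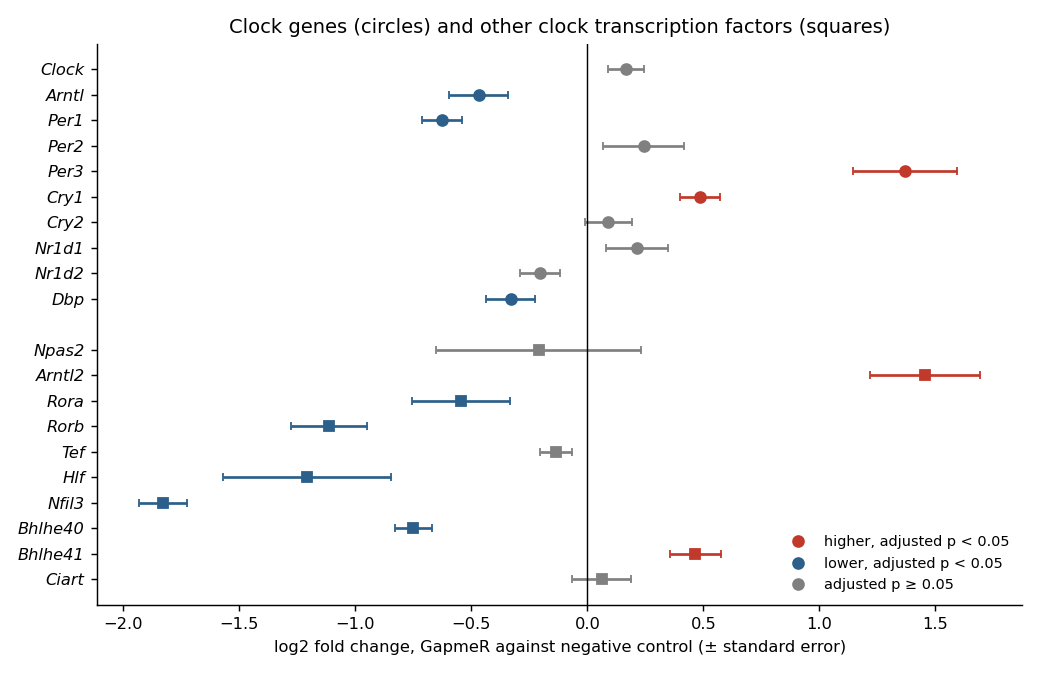
Log2 fold change (GapmeR against negative control, horizontal axis) of the 10 clock genes and of the tested other clock transcription factors, with its standard error, coloured red (higher) or blue (lower) where the edgeR adjusted p was under 0.05 and grey elsewhere. Nfil3 at -1.83 lay furthest to the left, and Arntl2 at 1.46 and Per3 at 1.37 furthest to the right.

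The genes for kinases, phosphatases and ubiquitin pathway proteins that act on PER and CRY moved both ways and by less than 1.5-fold. Of 14 tested, 2 rose and 3 fell (35.7% called, beside 45.3%), with a median log2 fold change of -0.08. The 14 also held Timeless, which encodes no such enzyme and was not called (log2 fold change 0.001, edgeR adjusted p = 0.994). Gsk3b, a kinase that phosphorylates several clock proteins, fell from 111 ± 1.56 CPM to 77.7 ± 2.19 CPM, with a log2 fold change of -0.51 (SE 0.07, edgeR adjusted p = 1.2e-05). Ppp1cb, a catalytic subunit of protein phosphatase 1, fell from 277 ± 0.695 to 217 ± 13.9 CPM (log2 fold change -0.35, SE 0.08, edgeR adjusted p = 0.00122). Csnk1d, the casein kinase that phosphorylates PER proteins, was at 272, 253, 279 and 261 CPM against 294 and 321 CPM in the controls (log2 fold change -0.21, SE 0.07, edgeR adjusted p = 0.0291), and 7 of 14 other fits did not call it. Ppp5c, a phosphatase that acts on casein kinase 1 epsilon, rose from 97.2 ± 2.30 to 134 ± 9.88 CPM (log2 fold change 0.46, SE 0.08, edgeR adjusted p = 0.000202). Usp7, a deubiquitinase that acts on CRY1, rose from 140 ± 0.651 to 178 ± 4.86 CPM (log2 fold change 0.35, SE 0.07, edgeR adjusted p = 0.000659).

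Genes known as rhythmic outputs of the clock moved both ways. Of 10 on the list, 9 were tested, 4 rose and 2 fell (66.7% called, beside 45.3%), with a median log2 fold change of 0.09, and Pdk4, at no more than 2 counts in a sample, was not tested. Noct, a circadian phosphatase once described as a deadenylase, was at 31.7, 28.7, 31.8 and 32.0 CPM against 25.2 and 24.5 CPM, a rise with a log2 fold change of 0.32 (SE 0.08, edgeR adjusted p = 0.00458). Wee1, a kinase that restrains entry into mitosis and an E-box target, rose from 29.3 ± 1.94 to 36.5 ± 1.20 CPM (log2 fold change 0.32, SE 0.08, edgeR adjusted p = 0.00365). Herpud1, a component of endoplasmic reticulum protein degradation, and Klf10, a Krüppel-like repressor, were higher by 0.31 (SE 0.09, edgeR adjusted p = 0.0107) and 0.24 (SE 0.08, edgeR adjusted p = 0.0227). Tspan4, a tetraspanin, fell from 247 ± 12.6 to 151 ± 9.72 CPM (log2 fold change -0.71, SE 0.08, edgeR adjusted p = 1.4e-06). Leo1, a subunit of the PAF complex, had a log2 fold change of -0.20 (SE 0.07, edgeR adjusted p = 0.0258), a call that 8 of 14 other fits did not make. Without negative control 2, Wee1 (edgeR adjusted p = 0.0685), Herpud1 (edgeR adjusted p = 0.0875) and Klf10 (edgeR adjusted p = 0.188) lost their calls, which left 1 of the list higher, Noct, and Klf10 did not pass in 3 of 14 other fits.

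Most genes on the list for the glucocorticoid and cAMP signals that reset the clock fell. The list holds targets of these signals and also Nr3c1, the glucocorticoid receptor gene, and Creb1, Crtc1 and Crtc2, which encode a transcription factor of the cAMP response and its coactivators. Of 13 tested, 9 fell and 0 rose by edgeR (69.2% called, beside 45.3%), with a median log2 fold change of -0.45, and 0 were higher at an unadjusted p under 0.05 or by DESeq2. Nr3c1 was among those that fell (log2 fold change -0.25, edgeR adjusted p = 0.0115), while Creb1, Crtc1 and Crtc2 were 3 of the 4 that did not pass, the other being Zbtb16. With scaling by library size only, 2 were called higher. Nr4a1, an immediate early nuclear receptor gene, had the largest change, with 28.7, 34.1, 31.1 and 37.6 CPM after knockdown and 128 and 135 CPM in the controls (3.99-fold lower, SE of the log2 value 0.09, edgeR adjusted p = 7.7e-11). Fkbp5, which encodes a co-chaperone of the glucocorticoid receptor, was at 25.4, 25.3, 26.0 and 22.6 CPM against 40.9 and 46.3 CPM (log2 fold change -0.81, SE 0.08, edgeR adjusted p = 8.7e-07). Klf9, a glucocorticoid-induced Krüppel-like factor, fell from 37.2 ± 2.96 to 22.1 ± 0.906 CPM (log2 fold change -0.75, SE 0.08, edgeR adjusted p = 1.5e-06). Dusp1, a MAP kinase phosphatase, fell from 683 ± 18.4 to 444 ± 36.0 CPM (log2 fold change -0.62, SE 0.08, edgeR adjusted p = 1.3e-05). Sgk1, a serum- and glucocorticoid-regulated kinase, fell from 198 ± 7.21 to 132 ± 16.9 CPM (log2 fold change -0.59, SE 0.10, edgeR adjusted p = 0.000178), and Crem, a cAMP-responsive modulator, from 30.4 ± 2.97 to 21.9 ± 0.934 CPM (log2 fold change -0.47, SE 0.09, edgeR adjusted p = 0.000283). Per1, which is itself induced by both signals, had a log2 fold change of -0.62. Whether either signal had a part in the changes of Per1 or of this list was not tested.

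**Figure D4:**
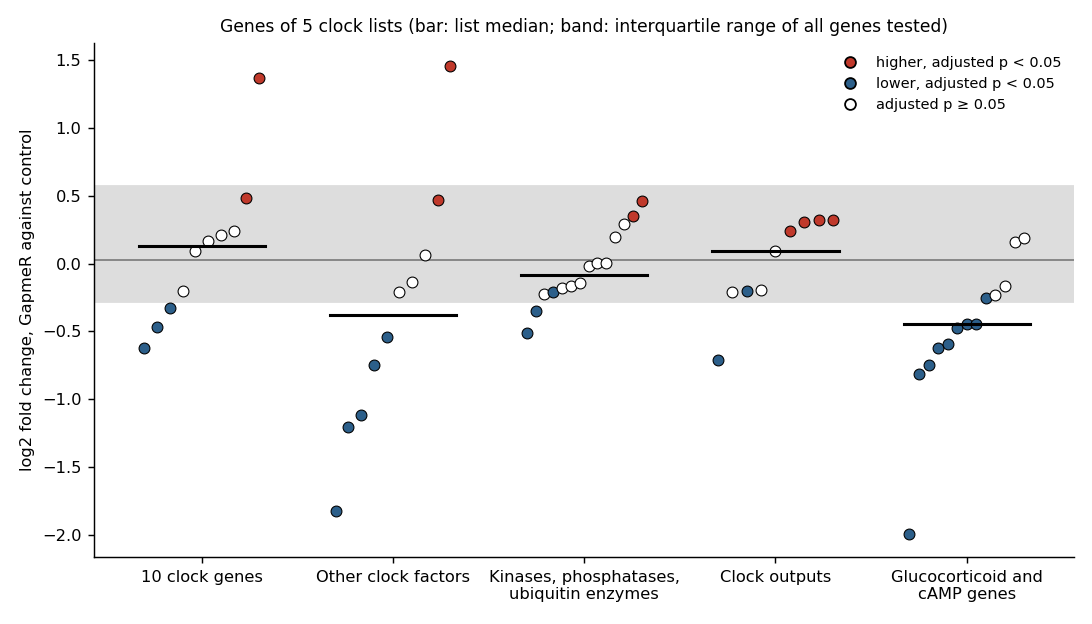
Log2 fold change (GapmeR against negative control) of each tested gene in the clock genes and the 4 other clock lists, each point 1 gene, filled where the edgeR adjusted p was under 0.05, with a bar at the median of each list and a grey band from -0.28 to 0.57, the interquartile range of all genes tested. The medians were 0.13 for the clock genes, -0.38 for other transcription factors, -0.08 for kinases, phosphatases and ubiquitin ligases, 0.09 for outputs and -0.45 for resetting genes.

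Over the 15 fits that kept the same threshold, Per1, Per3 and Cry1 were called in the same direction each time, Arntl in all but 2 and Dbp in all but 3. With both GapmeR samples 3 and 4 left out, where macrophage markers were highest, Arntl (-0.48), Per1 (-0.71), Per3 (1.33), Cry1 (0.49) and Dbp (-0.39) were still called. GapmeR samples 1 and 2, kept in that fit, still had a higher sum of these markers than the controls, though not a higher level of each marker. Scaling by library size only moved the median of all genes up by 0.148 on the log2 scale and the share of calls that were higher from 55.9% to 74.1%. Under it 4 clock genes were higher and 1 lower, since Clock and Nr1d1 were added and Arntl and Dbp lost.

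**Figure D5:**
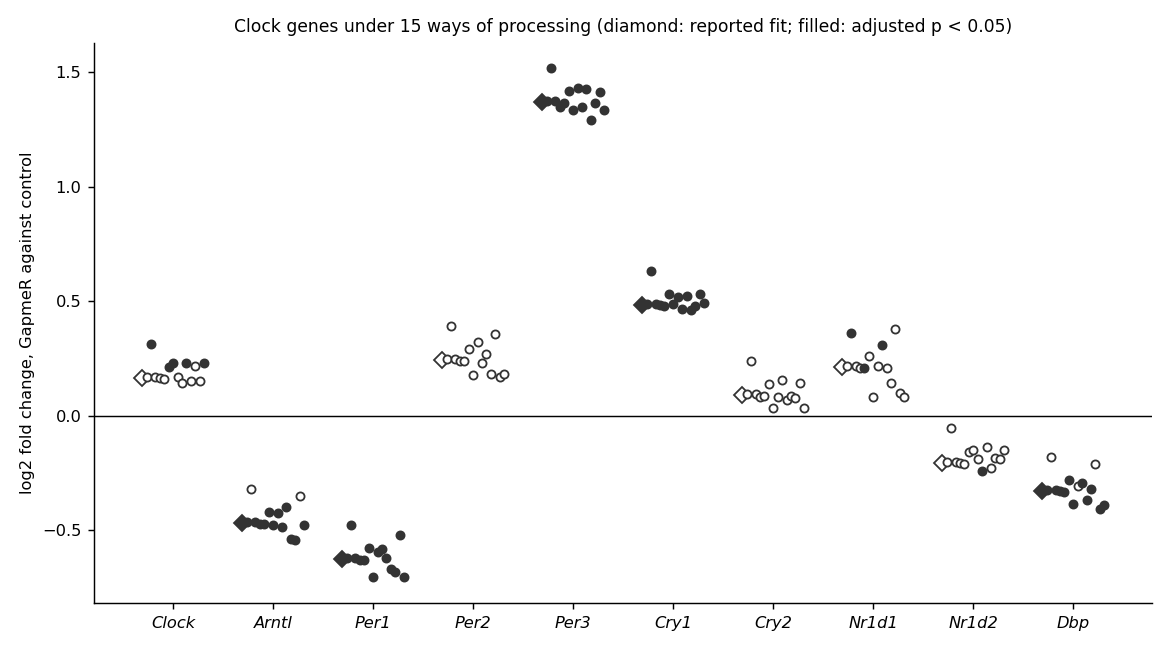
Log2 fold change of each clock gene in the reported fit (diamonds) and under each processing alternative (circles), with filled marks for an edgeR, DESeq2 or limma adjusted p under 0.05. Per1, between -0.71 and -0.48, Per3, between 1.29 and 1.52, and Cry1, between 0.46 and 0.63, passed throughout.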

How the data were processed

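RNA of bEND.3 cells was ribodepleted and sequenced in pairs of reads. The authors deposited raw read counts per Ensembl gene, made with bcbio-nextgen and STAR on mm10, without normalization or filtering. The submitters' processing notes name Trimmomatic 0.36, STAR 2.5.2b and Subread 1.5.2. Neither the Ensembl release nor the strand setting is given in the sources used here, so overlapping genes may share reads. Samples were grouped by their titles into 4 GapmeR and 2 negative control samples, whereas the labels state 4 per group, and 1 further column of counts was not used.

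Differential expression was tested with edgeR 4.0.16 (R 4.3.3; TMM, robust quasi-likelihood, Benjamini-Hochberg adjustment over all genes tested, adjusted p under 0.05) on genes that reached 5 counts in 2 or more samples. CPM values used TMM factors (1.02 to 1.05 for GapmeR, 0.936 and 0.931 for negative control). The code was tested on simulated data for this comparison (17976 genes), with 11 false among 161 calls. At a mean of at least 100 counts, 36 of 38 changes of 1.5-fold and 39 of 39 of 2-fold were called. The simulation changed 200 genes, up or down, with the same dispersion for every gene. In the data 45.3% of the genes tested were called, so these rates need not hold there. Single genes and ratios used exact permutation tests of the absolute difference of means. Exon lengths and overlaps came from GENCODE vM39 (GRCm39), from which no coordinates were taken, and gene positions and promoters from RefSeq GRCm38.p6.

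The genes and lists were chosen with earlier results of these data known. Named were the 10 clock genes, Gm39822, untested list genes, and up to 6 genes per other list with the largest absolute change among those called with a mean of at least 1 CPM. Nr3c1, other list genes that did not pass, and overlapping or neighbouring genes, were named for a result that turned on them, and 1 item is not reported here. Alternatives were DESeq2 1.42.0 (its size factors or its Wald test), library size only, limma 3.58.1 (voom), 2 other filters, a fold threshold of 1.5, the replicate block and each sample left out. The ratios, and leaving out both GapmeR samples 3 and 4, were chosen after seeing the data.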

Additional observations from a re-analysis of the deposited data

Results flagged for a closer look

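Of 35 genes checked over the 4 GapmeR samples, 3 held a sample far from the others, with a gap to the nearest sample, divided by the range, above Dixon's 95% critical value for groups of 4, and chance alone gives about 1 in 20. Hlf was high in GapmeR sample 3, at 0.645 CPM against 0.310 to 0.334 CPM in the others (0.927). Noct was low in GapmeR sample 2, at 28.7 CPM against 31.7 CPM or more in the others (0.907). Tspan4 was also low in GapmeR sample 2, at 137 CPM against 155 to 157 CPM (0.885).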

How the results depend on the processing

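No clock gene changed direction under any alternative, and the calls of Per2 and Cry2 (none), Per1 and Per3 kept their side of each threshold run. The cause of the changes that follow was not tested, except that the fold threshold removes smaller changes by construction. With library size only, Arntl was at -0.32 and Dbp at -0.18, both no longer called, Clock (0.31) and Nr1d1 (0.36) were called, 4 clock genes were higher and 1 lower, 2135 of all genes tested were lower, 2 resetting genes were higher and 1 output was lower. With at least 10 counts in every sample, which Gm39822 did not reach, Clock (0.21) was called, 1 resetting gene was higher and 1 output lower, and with no filter Nr1d1 (0.21) was called and 4 outputs were lower. With a fold of at least 1.5, Arntl (-0.47), Cry1 (0.48) and Dbp (-0.33) were lost, leaving 1 clock gene higher and 1 lower, 1 other transcription factor higher, 0 kinases or phosphatases either way, 0 outputs higher and 1 lower, 5 resetting genes lower and 1390 genes lower in all. With both GapmeR samples 3 and 4 left out, Clock (0.23) was called and 1 output was lower.

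The replicate block could use 4 samples and left 1 residual degree of freedom. Same-numbered samples' deviations correlated at -0.110 and 0.172, so the numbers were not taken as pairs. With the block, Clock (0.23) was called, Arntl was at -0.48, Per1 -0.70, Per2 0.18, Per3 1.33, Cry1 0.49, Cry2 0.03, Nr1d1 0.08, Nr1d2 -0.15, Dbp -0.39 and Gm39822 -5.44, and 7812 genes were called, 4517 higher and 3295 lower, against 8268.

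Leaving out each sample in turn gave -0.54 to -0.35 for Arntl (lost without negative control 2) and 0.14 to 0.23 for Clock. Ranges were -0.68 to -0.52 for Per1, 0.17 to 0.36 for Per2 and 1.29 to 1.43 for Per3. They were 0.46 to 0.53 for Cry1, 0.07 to 0.15 for Cry2 and 0.10 to 0.38 for Nr1d1. Nr1d2 gave -0.24 to -0.14 and Dbp -0.41 to -0.21. Gm39822 was at -5.25 to -4.52 with each GapmeR sample left out. With either control left out, Gm39822 did not reach the filter and was not fitted. Clock genes called were 2 to 3 higher and 2 to 4 lower, and of all genes tested 3302 to 4800 higher and 1930 to 3949 lower, with 2262 lower without negative control 1 and 1930 without negative control 2. Other transcription factors were 2 higher and 3 to 5 lower, with 3 without either control. Kinases and phosphatases were 2 to 3 higher and 2 to 4 lower, outputs 1 to 4 higher and 1 to 3 lower, with 1 higher without negative control 2 and 1 lower without GapmeR sample 3, GapmeR sample 4 or either control, and resetting genes 0 higher and 6 to 10 lower. Of 360 values over the 24 other named genes, 317 kept their call, 43 lost it and 0 changed direction. In the controls Hlf, at 25 and 30 counts, Per3, at 30 and 36, and Arntl2, at 34 in both, had the fewest counts of the named clock list genes that were called. These low counts limit their precision. Uts2, the gene that overlaps Per3, was lower still, at 0 in both controls.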
